A study of Mus musculus with 6 samples.

Results

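The hypoxia response genes that lie outside glycolysis were examined in bulk RNA-seq of CD11b+ cells from subcutaneous TC1 tumors. They comprise 31 genes, chosen by symbol, that encode the subunits of the hypoxia-inducible factors (HIF), the enzymes that sense oxygen and mark HIF for degradation, and HIF targets with no step in glycolysis. All 31 were found among the 25701 genes of the count table, and all 31 passed the filter on low counts. The libraries came from 3 MCT2 CO and 3 MCT2 KO mice. Both groups were young male mice of the same C57BL/6 line with floxed *Slc16a7* (MCT2loxP/loxP) and an inducible Cre (mCre-Tg). At an age of 8 weeks the MCT2 KO mice received tamoxifen and the MCT2 CO mice vehicle, TC1 lung epithelial tumor cells were injected into the flank 2 days later, and tumors were taken after 24 days. The deletion was systemic rather than limited to macrophages, the implanted tumor cells did not carry the floxed allele, and tamoxifen was given to the MCT2 KO group alone, so that an effect of the drug and loss of MCT2 cannot be told apart. The paper also reports larger tumors in MCT2 KO mice and states that larger tumors may become hypoxic. An effect of tumor size thus cannot be told apart from the drug and loss of MCT2 either.

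HIF is a transcription factor made of an oxygen-labile alpha subunit and the stable partner ARNT. In oxygenated cells the prolyl hydroxylases of the *Egln* genes modify the alpha subunit, the product of *Vhl* then targets it for destruction, and the asparaginyl hydroxylase of *Hif1an* blocks its transcriptional activity. When oxygen falls the alpha subunit accumulates without a need for more of its mRNA, and HIF binds short elements near its target genes. Macrophages gather in hypoxic parts of tumors, where they are known to use this response to adjust metabolism and to secrete angiogenic factors.

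The deposited values were read counts per gene, with total counts from 24863611 to 31713704 per library. Levels are given as CPM, a gene's reads relative to the library total after scaling by the TMM method, and fold changes as MCT2 KO over MCT2 CO from edgeR's quasi-likelihood test, with a standard error (SE) and a p value adjusted over all 13485 genes tested. The targeted gene *Slc16a7* had 16.0, 11.04 and 11.2 CPM in the MCT2 CO libraries and 8.22, 4.97 and 5.34 CPM in the MCT2 KO libraries, so every MCT2 KO value was lower but transcript remained (log2 fold change -1.05, SE 0.24, adjusted p = 0.370 from edgeR). By DESeq2 without the filter on low counts, its log2 fold change was -1.04 (SE 0.25, adjusted p = 0.00908). MCT2 CO replicate 3 lay apart from the other libraries on the first principal component and MCT2 KO replicate 2 on the second, and fold changes that shifted clearly without either are given below without it. The preparations carried macrophage transcripts, with *Adgre1* between 253 and 538 CPM, and stromal transcripts as well, with *Pdgfra* between 352 and 483 CPM. The epithelial markers *Krt8*, *Krt18* and *Krt19* were at or near 0 in every library (at most 0.17 CPM), whereas *Cdh1* had 13.2 to 32.03 CPM. The paper states that telling TC1 cells from host stromal cells would need further analyses. *Pdgfra* thus does not tell host stroma from tumor cells, and low *Krt* levels do not show that tumor cells were absent. In such bulk samples, fewer cells of a type and less RNA per cell cannot be told apart.

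HIF elements share the core ACGTG or GCGTG, and promoters of 5 of the members that were higher in every MCT2 KO library are shown to let these cores be seen. The 150 bases before the transcription start, from RefSeq on GRCm38.p6, are written 5′ to 3′ in the direction of the gene, with each core on either strand in capitals. The intervals are chr7:138909507-138909656 (minus strand) for *Bnip3*, chr14:45318573-45318722 (minus strand) for *Ero1a*, chr7:110627507-110627656 (plus strand) for *Adm*, chr8:45999851-46000000 (minus strand) for *Ankrd37* and chr4:86670060-86670209 (minus strand) for *Plin2*.
Bnip3: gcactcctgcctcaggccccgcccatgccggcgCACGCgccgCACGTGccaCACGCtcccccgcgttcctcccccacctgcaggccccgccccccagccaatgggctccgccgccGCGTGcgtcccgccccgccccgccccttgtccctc
Ero1a: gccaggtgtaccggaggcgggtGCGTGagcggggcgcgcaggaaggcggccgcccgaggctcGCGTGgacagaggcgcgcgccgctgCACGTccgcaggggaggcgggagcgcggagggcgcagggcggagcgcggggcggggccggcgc
Adm: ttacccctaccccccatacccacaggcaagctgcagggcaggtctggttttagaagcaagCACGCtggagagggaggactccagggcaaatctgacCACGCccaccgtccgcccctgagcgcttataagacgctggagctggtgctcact
Ankrd37: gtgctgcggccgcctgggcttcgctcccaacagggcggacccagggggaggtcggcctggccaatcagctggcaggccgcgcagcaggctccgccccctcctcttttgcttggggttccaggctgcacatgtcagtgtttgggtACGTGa
Plin2: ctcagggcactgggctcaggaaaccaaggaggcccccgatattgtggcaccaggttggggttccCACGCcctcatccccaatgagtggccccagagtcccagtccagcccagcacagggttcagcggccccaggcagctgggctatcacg

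The *Bnip3* promoter held 5 matches over its full 300 bases (250 before and 50 after the start). In that promoter ACGTG on opposite strands overlaps by all but 1 base as CACGTG, which is also an E-box. The full promoters of *Ankrd37*, *Ero1a*, *Plin2* and *Adm* held 4, 3, 3 and 2 matches, of which those of *Plin2* across the start and 3 of *Ankrd37* farther upstream are not in capitals here. Promoters of 26 members were matched by symbol, 36 promoters in all, and those of *Bhlhe40*, *Bnip3l*, *Epas1*, *Plod2* and *Ndrg1* were not. Either core was present in 29 of the 36 (80.6%), against 43.8% of 32851 promoters of the same length. By gene, 23 of 26 members had a match in at least 1 promoter, against 46.7% of all genes. The members were chosen as HIF genes, so more matches among them are no result of these data. Both cores contain CG, and the background was not matched for base composition. Among members higher in every MCT2 KO library it was 6 of the 6 with a promoter, and among the other members 17 of 20, so that a match did not separate those groups of genes. The promoters of *Hilpda*, also among the 6, are not printed because the first of them holds no core in its 150 bases before the start, its 1 match lying 28 bases after it, and 121 of the 150 bases of the second, which has 3 matches, are exonic. The sequences shown were thus chosen among those with a core. A match is a description of the letters in this window and not evidence of binding.

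A gene was called when its adjusted p did not exceed 0.05 and its log2 fold change was 0.58 or more in size. By edgeR's quasi-likelihood test no member was called, beside 0% of all genes tested. The adjusted p values of the members ranged from 0.370 to 0.997. At an unadjusted p under 0.05, 7 members were higher in MCT2 KO (22.6% of 31) and 0 were lower, beside 3.77% and 5.6% of all genes tested (9.37% in either direction). The same 7 were the members whose 3 MCT2 KO values all lay above the 3 MCT2 CO values, a pattern found in 7.07% of all genes tested (15.8% when either direction counts). They were *Adm*, *Bnip3*, *Hilpda*, *Ero1a*, *Ankrd37*, *Plin2* and *Ndrg1*. With DESeq2, the tool the study used, and no filter beyond a single read, 2 members were called at the same thresholds, *Bnip3* (adjusted p = 0.00692) and *Adm* (adjusted p = 0.0203), beside 0.448% of all genes. limma-voom called 0 members. In all, 22 members had a fitted fold change above 0 and 9 below, against 50.1% and 49.9% of all genes, and the median log2 fold change was 0.15 over the members and 0.0004 over all genes tested.

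**Figure D1:**
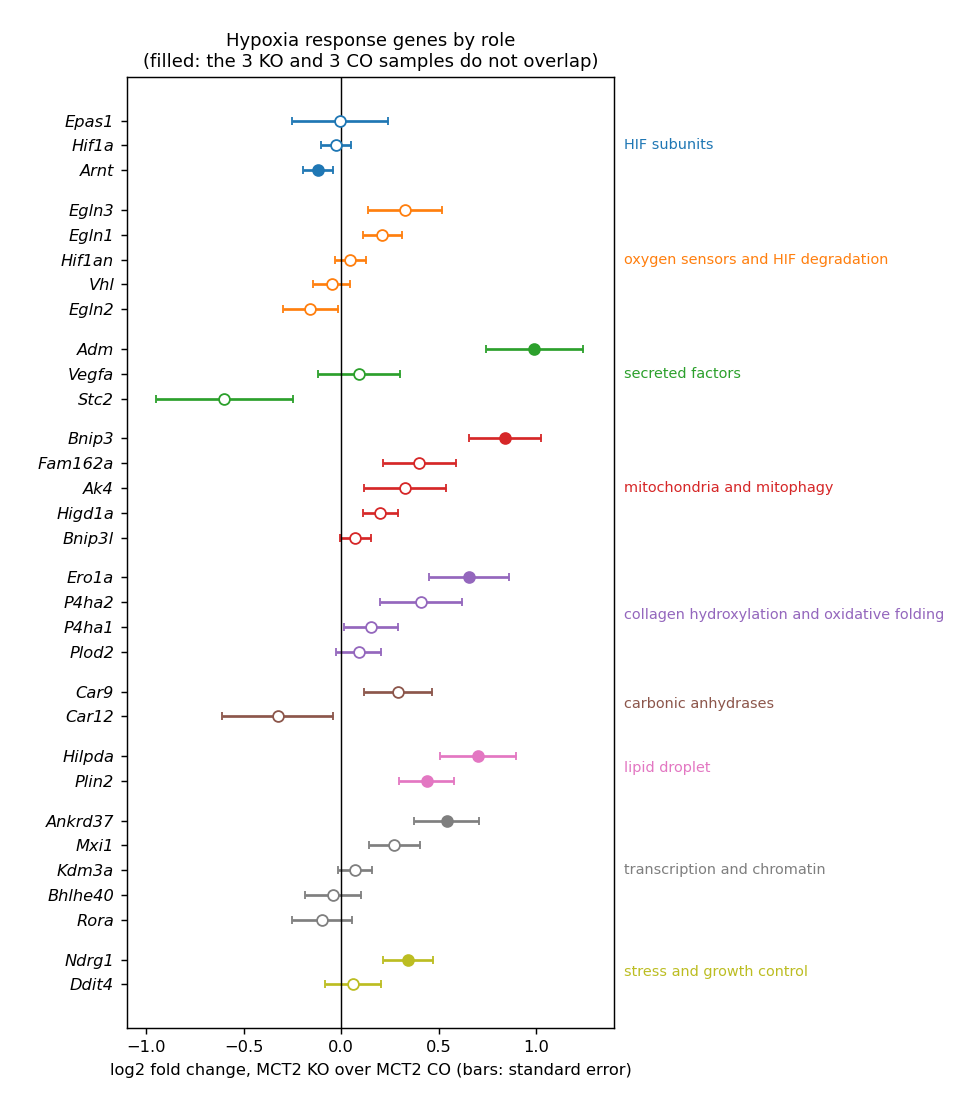
Log2 fold change of each of the 31 members, MCT2 KO over MCT2 CO, with its standard error (x axis), grouped by role (y axis and color). Filled points are the 8 members whose 3 MCT2 KO and 3 MCT2 CO libraries do not overlap, 7 of them higher and *Arnt* lower in MCT2 KO. *Adm* lies farthest to the right at 0.99 and *Stc2* farthest to the left at -0.60.

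The transcripts of the HIF subunits themselves differed little between the groups. *Hif1a*, the alpha subunit induced in most hypoxic cells, had 93.1, 86.6 and 88.0 CPM in MCT2 CO and 85.7, 92.8 and 84.0 CPM in MCT2 KO. The groups overlapped, and the log2 fold change was -0.03 (SE 0.08, adjusted p = 0.929 from edgeR). Of the exon bases of *Hif1a*, 60.9% lie inside the span of another listed gene, *Gm49321*, so that its level may be undercounted in every library. *Epas1*, which encodes HIF-2 alpha and is also made by endothelial cells, had 10.7, 15.4 and 22.4 CPM in MCT2 CO and 15.1, 18.3 and 14.8 CPM in MCT2 KO. Its MCT2 CO values spanned its MCT2 KO values, and its log2 fold change of -0.0049 (SE 0.25) became 0.31 without MCT2 CO replicate 3. *Arnt*, the shared partner, had 147, 138 and 151 CPM in MCT2 CO and 134, 132 and 134 CPM in MCT2 KO. Every MCT2 KO value of *Arnt* was below every MCT2 CO value, as in 8.77% of all genes tested, but the difference was small (log2 fold change -0.12, SE 0.08, adjusted p = 0.648 from edgeR). It was the one member of the 31 that did not overlap in this direction.

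None of the 5 oxygen sensors and HIF-degrading factors separated the groups. *Egln1*, the main prolyl hydroxylase that acts on HIF, had 86.5, 92.6 and 75.6 CPM in MCT2 CO and 91.9, 105 and 98.1 CPM in MCT2 KO (log2 fold change 0.21, SE 0.10, adjusted p = 0.557 from edgeR). *Egln3*, a prolyl hydroxylase that is itself a strong HIF target, had 9.67, 10.7 and 6.77 CPM in MCT2 CO and 10.7, 10.3 and 13.1 CPM in MCT2 KO, with a log2 fold change of 0.33 (SE 0.19). For both, MCT2 CO replicate 3 was the lowest library, and without it the log2 fold changes were 0.13 and 0.16. *Egln2*, the prolyl hydroxylase that hypoxia does not induce, was lowest in MCT2 KO replicate 2 at 41.3 CPM and lay between 52.4 and 60.5 CPM in the other libraries, so that its log2 fold change of -0.16 (SE 0.14) was -0.02 without that library. *Vhl*, the substrate receptor of the ubiquitin ligase, stayed between 17.4 and 20.1 CPM and *Hif1an* between 47.7 and 53.7 CPM over the 6 libraries.

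Of the 3 secreted factors, *Adm* was the one higher in every MCT2 KO library. It encodes adrenomedullin, a vasodilator peptide released by hypoxic cells, and lies on the plus strand of chromosome 7 of GRCm38 from 110627661 to 110629820. Its levels were 4.84, 7.23 and 7.98 CPM in MCT2 CO and 9.85, 17.0 and 12.8 CPM in MCT2 KO. The groups did not overlap, with means of 6.68 ± 1.64 (SD, n = 3) and 13.2 ± 3.60 CPM (SD, n = 3). The log2 fold change of 0.99 (SE 0.25, adjusted p = 0.380 from edgeR) was the highest of the 31 members and ranked 83 from the top of all genes tested. With each mouse left out in turn it stayed between 0.76 and 1.17.

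*Vegfa*, the main angiogenic factor and a classical HIF target, did not follow *Adm*. It had 307, 281 and 208 CPM in MCT2 CO and 331, 201 and 317 CPM in MCT2 KO. The groups overlapped, with MCT2 KO replicate 2 just below MCT2 CO replicate 3. MCT2 KO replicate 2 was thus the highest library for *Adm* and the lowest for *Vegfa*. The log2 fold change of *Vegfa* was 0.09 (SE 0.21, adjusted p = 0.915 from edgeR), 0.29 without MCT2 KO replicate 2 and -0.06 without MCT2 CO replicate 3. *Stc2*, which encodes the glycoprotein hormone stanniocalcin 2, had 2.57, 4.19 and 7.11 CPM in MCT2 CO and 3.14, 3.44 and 2.53 CPM in MCT2 KO, and its log2 fold change of -0.60 (SE 0.35) was -0.15 without MCT2 CO replicate 3.

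Of the 5 members that act on mitochondria, all had a fitted fold change above 0 and *Bnip3* alone separated the groups. *Bnip3* encodes a receptor on the outer mitochondrial membrane that recruits the machinery of mitophagy. The gene is on chromosome 7, minus strand, from 138890836 to 138909519. Its levels were 38.2, 41.9 and 25.02 CPM in MCT2 CO and 56.0, 69.2 and 62.8 CPM in MCT2 KO. Every MCT2 KO library was above every MCT2 CO library, at 62.7 ± 6.60 against 35.0 ± 8.87 CPM (SD, n = 3), a fold of 1.79. Its log2 fold change of 0.84 (SE 0.18, adjusted p = 0.370 from edgeR) had the smallest p of the 31 members, rank 58 of all genes tested, and stayed between 0.65 without MCT2 CO replicate 3 and 0.99 without MCT2 CO replicate 2.

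*Bnip3l*, the paralog of *Bnip3* that also serves as a mitophagy receptor and is known as NIX, showed no such separation. It had 70.1, 67.5 and 67.9 CPM in MCT2 CO and 67.9, 76.9 and 71.1 CPM in MCT2 KO (log2 fold change 0.07, SE 0.08). To compare paralogs without any scaling between libraries, the ratio of their read counts was taken within each library, a measure chosen after the values were seen. The ratio of *Bnip3* to *Bnip3l* was 0.545, 0.621 and 0.369 in MCT2 CO and 0.825, 0.900 and 0.883 in MCT2 KO. The ratios did not overlap, and their log2 difference was 0.80 (SE 0.23). *Bnip3* had already separated the groups and *Bnip3l* varied little, so the separation of their ratio is no separate support. A two-sided exact permutation test gave p = 0.1, the lowest value reachable with 3 against 3, and 0.5 after adjustment over 5 paralog pairs. The ratios of *P4ha2* to *P4ha1*, *Egln3* to *Egln1*, *Egln2* to *Egln1* and *Hif1a* to *Epas1* overlapped between the groups.

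**Figure D2:**
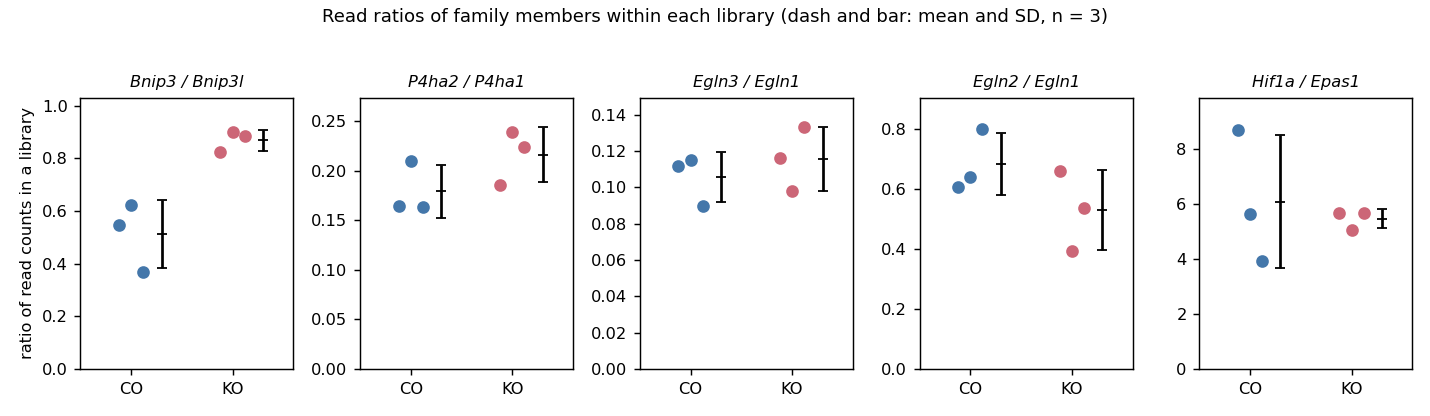
Ratio of the read counts of paralogs within each library (y axis) in the 3 MCT2 CO and 3 MCT2 KO libraries (x axis), with the mean and SD, each panel on its own scale from 0. The *Bnip3* to *Bnip3l* ratio was at most 0.621 in MCT2 CO and at least 0.825 in MCT2 KO, and the other 4 ratios overlapped.

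The other mitochondrial members were close to separating or overlapped. *Higd1a*, a small inner membrane protein that assists the respiratory chain under low oxygen, had 36.4, 39.7 and 34.8 CPM in MCT2 CO and 39.5, 43.4 and 44.4 CPM in MCT2 KO, with 1 MCT2 KO value just under the highest MCT2 CO value (log2 fold change 0.20, SE 0.09). *Fam162a*, a mitochondrial protein of hypoxia-induced cell death, had 53.5, 58.1 and 34.8 CPM in MCT2 CO and 54.8, 68.9 and 69.7 CPM in MCT2 KO (log2 fold change 0.40, SE 0.19), and the log2 fold change was 0.21 without MCT2 CO replicate 3. Of its exon bases 19.8% lie inside the span of *Wdr5b*. *Ak4*, a mitochondrial adenylate kinase, had its highest value, 19.98 CPM, in MCT2 KO replicate 2, and 11.5 to 16.3 CPM in the other libraries, with a log2 fold change of 0.33 (SE 0.21) that was 0.13 without that library.

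The enzymes of protein folding and collagen modification all had fitted fold changes above 0, led by *Ero1a*. *Ero1a* encodes the oxidase that passes electrons from protein disulfide isomerase to oxygen in the endoplasmic reticulum. The gene is on chromosome 14, minus strand, from 45283087 to 45318771. It had 95.3, 98.2 and 57.0 CPM in MCT2 CO and 111, 147 and 136 CPM in MCT2 KO. The MCT2 KO libraries were all higher, and MCT2 CO replicate 3 lay far below the other MCT2 CO libraries. The log2 fold change was 0.66 (SE 0.21, adjusted p = 0.433 from edgeR) and 0.44 without that library. *P4ha1*, a catalytic subunit of collagen prolyl 4-hydroxylase, was among the members with the highest levels per kilobase of exon. It had 279, 294 and 203 CPM in MCT2 CO and 286, 286 and 291 CPM in MCT2 KO, and its log2 fold change of 0.15 (SE 0.14) was 0.0061 without MCT2 CO replicate 3. Its isoenzyme gene *P4ha2* had 45.8, 61.7 and 33.3 CPM in MCT2 CO and 53.0, 68.4 and 65.2 CPM in MCT2 KO (log2 fold change 0.41, SE 0.21). That of *P4ha2* was 0.21 without MCT2 CO replicate 3 and 0.66 without MCT2 CO replicate 2. *Plod2*, the lysyl hydroxylase that sets collagen cross-links, overlapped (log2 fold change 0.09, SE 0.12, and 0.01 without MCT2 CO replicate 3).

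The carbonic anhydrases of the cell surface, which regulate pH, were near the bottom of the members. *Car9*, widely used as a tissue marker of hypoxia, had 6.94, 7.42 and 5.57 CPM in MCT2 CO and 7.97, 6.94 and 9.52 CPM in MCT2 KO. Its groups overlapped through MCT2 KO replicate 2 (log2 fold change 0.29, SE 0.18, and 0.18 without MCT2 CO replicate 3). *Car12* had the lowest level per kilobase of exon of all members, with 19 to 39 reads per library, so that counting error is large for it (log2 fold change -0.33, SE 0.28).

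Both lipid droplet genes were higher in every MCT2 KO library. *Hilpda*, which encodes an inhibitor of the triglyceride lipase ATGL that lets droplets grow in hypoxia, lies on the plus strand of chromosome 6 from 29272488 to 29275446. It had 13.2, 14.8 and 15.9 CPM in MCT2 CO and 19.0, 31.6 and 20.9 CPM in MCT2 KO. The MCT2 CO values were tight and MCT2 KO replicate 2 stood well above the other MCT2 KO values. The log2 fold change was 0.70 (SE 0.19, adjusted p = 0.424 from edgeR), and 0.44 without that library. *Plin2*, the droplet coat protein perilipin 2 and a gene also driven by PPARs, lies on the minus strand of chromosome 4 from 86648386 to 86670060 and had 219, 226 and 184 CPM in MCT2 CO and 248, 263 and 341 CPM in MCT2 KO. Here the highest library was MCT2 KO replicate 3, not replicate 2, and the log2 fold change was 0.44 (SE 0.14, adjusted p = 0.438 from edgeR), and 0.29 without MCT2 KO replicate 3.

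**Figure D3:**
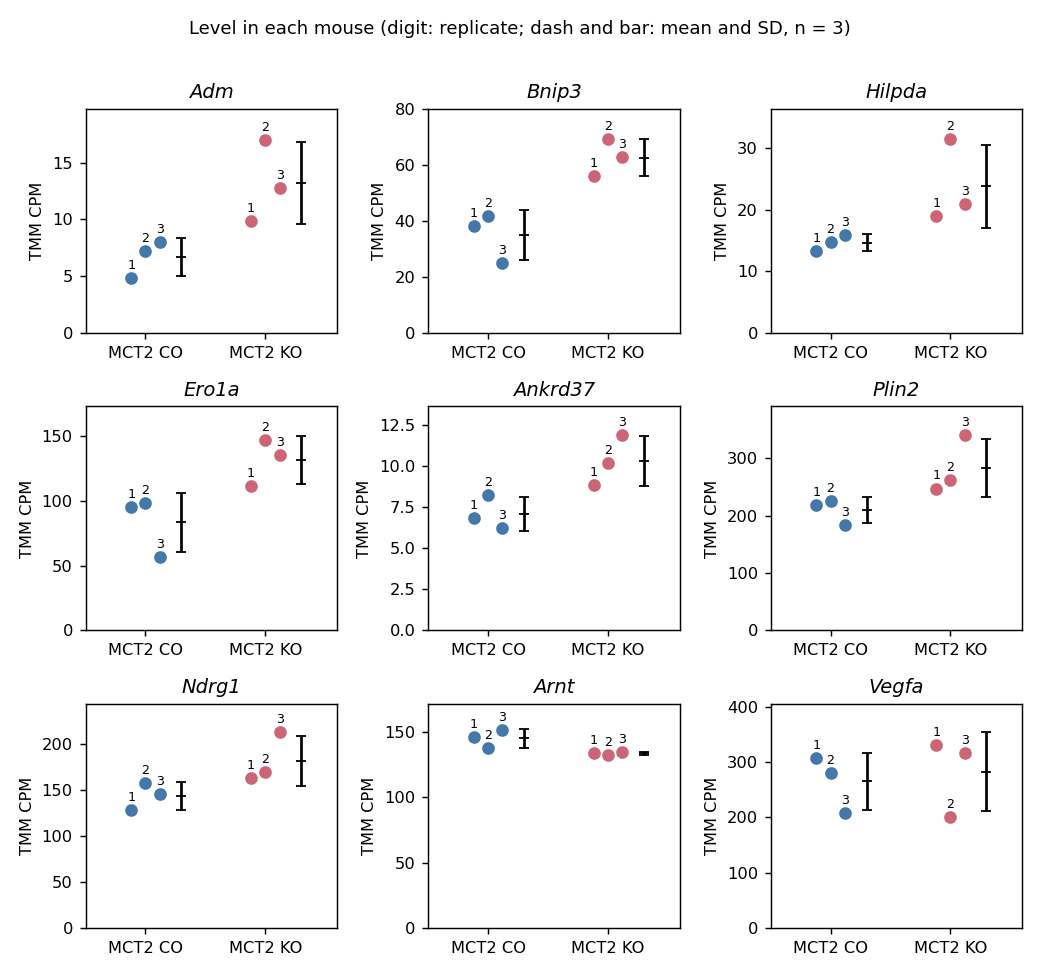
TMM-scaled CPM (y axis, from 0) of 9 members in each of the 3 MCT2 CO and 3 MCT2 KO mice (x axis), numbered by replicate, with the mean and SD beside the points. The first 7 panels hold the members higher in every MCT2 KO mouse, *Arnt* is lower in every MCT2 KO mouse, and *Vegfa* overlaps, with MCT2 KO replicate 2 at 201 CPM.

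Among the transcription and chromatin genes, *Ankrd37* was the one that separated the groups. It encodes a small ankyrin repeat protein that is a direct HIF target. The gene is on chromosome 8, minus strand, from 45996902 to 46005707. It had 6.80, 8.23 and 6.21 CPM in MCT2 CO and 8.85, 10.2 and 11.8 CPM in MCT2 KO, all above the MCT2 CO values though narrowly for MCT2 KO replicate 1. The log2 fold change was 0.54 (SE 0.17, adjusted p = 0.433 from edgeR). Of its exon bases 46.0% lie inside the spans of *Lrp2bp* and *Ufsp2*, so that its level may be undercounted. *Mxi1*, an antagonist of MYC, had 111, 104 and 87.6 CPM in MCT2 CO and 140, 120 and 106 CPM in MCT2 KO (log2 fold change 0.27, SE 0.13, and 0.18 without MCT2 CO replicate 3), and overlapped through MCT2 KO replicate 3. *Kdm3a*, an oxygen-dependent H3K9 demethylase, lay between 112 and 135 CPM in all libraries. *Bhlhe40*, a circadian and immune repressor, was lowest in MCT2 KO replicate 2 at 225 CPM and ranged from 251 to 315 CPM elsewhere. *Rora*, a nuclear receptor, was highest in MCT2 CO replicate 3 at 29.6 CPM, and its log2 fold change of -0.10 (SE 0.16) was 0.07 without that library.

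The pair of stress and growth genes divided. *Ndrg1*, a stress-responsive growth and differentiation gene, lies on the minus strand of chromosome 15 from 66929318 to 66969640 and had 127, 157 and 145 CPM in MCT2 CO and 163, 169 and 213 CPM in MCT2 KO. All MCT2 KO values were higher, by a log2 fold change of 0.34 (SE 0.13, adjusted p = 0.491 from edgeR), although its libraries overlapped when scaled by library size alone. Without MCT2 KO replicate 3, its highest library, the log2 fold change of *Ndrg1* was 0.22. *Ddit4*, the mTORC1 inhibitor REDD1 that glucocorticoids and stress also induce, had 17.8, 15.6 and 16.9 CPM in MCT2 CO and 19.7, 18.7 and 14.0 CPM in MCT2 KO, with no separation (log2 fold change 0.06, SE 0.14).

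Read by library, MCT2 CO replicate 3 had the lowest value of 16 of the 31 members and the highest of 5, namely *Epas1*, *Stc2*, *Rora*, *Arnt* and *Car12*. MCT2 KO replicate 2 had the highest value of 10 members, *Adm*, *Hilpda*, *Bnip3* and *Ero1a* among them, and the lowest of 5, namely *Vegfa*, *Bhlhe40*, *Egln2*, *Arnt* and *Vhl*. The median of the members' log2 CPM about each gene's mean was -0.07, -0.02 and -0.20 for MCT2 CO and 0.03, 0.12 and 0.13 for MCT2 KO, in the order of the replicates. Without MCT2 CO replicate 3, 5 members remained at an unadjusted p under 0.05, *Plin2* and *Ndrg1* being the ones lost, and without MCT2 KO replicate 2 there were 7. The count was 11 without MCT2 CO replicate 2 and also without MCT2 KO replicate 1. Over all genes tested, the number at an unadjusted p under 0.05 was 1264 with all libraries, 787 without MCT2 CO replicate 3, 1576 without MCT2 KO replicate 2, 1039 without MCT2 CO replicate 2 and 1252 without MCT2 KO replicate 1. With both libraries left out, a step added once the values were known, those 7 members still lay above in every MCT2 KO library. Apart from rescaling, that was fixed by how they were picked. They also stayed at an unadjusted p under 0.05.

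**Figure D4:**
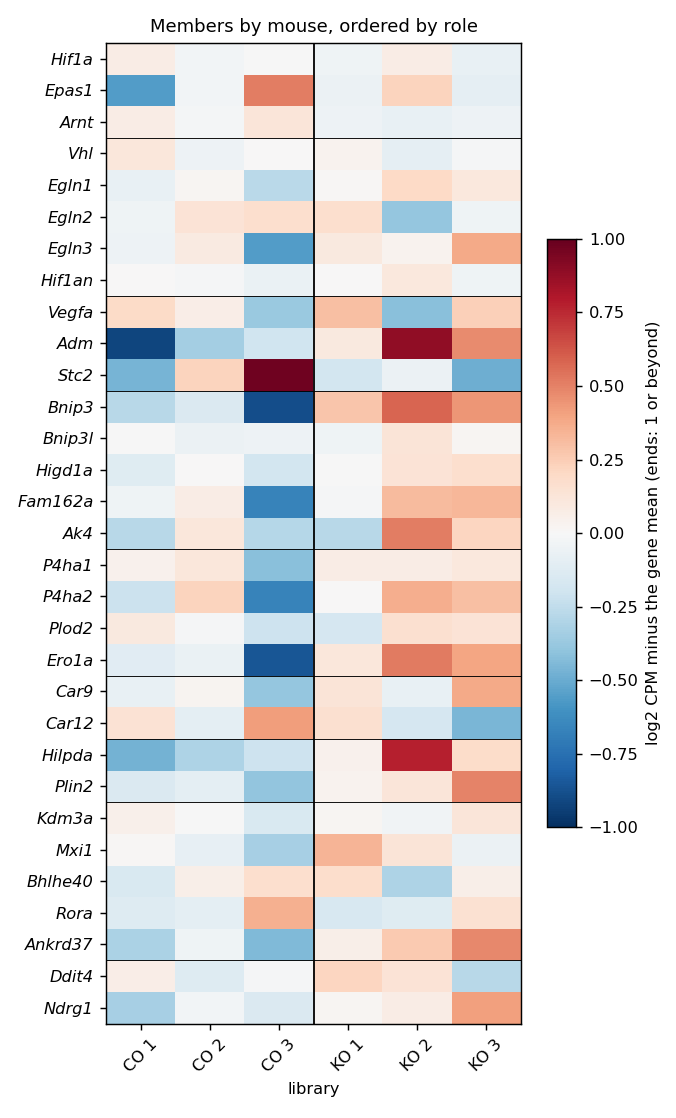
Log2 CPM of the 31 members minus each gene's mean over the 6 libraries (color), with libraries in columns and genes in rows ordered by role, separated by lines. MCT2 CO replicate 3 is the lowest library for 16 members, and MCT2 KO replicate 2 is the highest for 10.

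Of 8 fibroblast markers, 7 had a fitted fold change below 0, and *Thy1*, also in the T cell list, was at 0.53 (SE 0.34). Their summed level over 8 genes was 2053, 2253 and 3368 CPM in MCT2 CO, highest in replicate 3, and 1834, 1826 and 1735 CPM in MCT2 KO. *Col3a1* was the largest part of it, at 1187 to 2028 CPM in MCT2 CO and 805 to 1017 CPM in MCT2 KO. A two-sided exact permutation test of the sum gave p = 0.1, again the lowest reachable, with no adjustment over the marker lists. Of the 8 genes, 3 were lower in every MCT2 KO library and 0 were higher in every MCT2 KO library. Over all genes tested, 8.77% were lower and 7.07% higher in every MCT2 KO library, and the marker counts are to be read beside these shares. All 12 macrophage markers had a fitted fold change above 0, with a median log2 fold change of 0.25 beside 0.15 for the members, and 1 of them had an unadjusted p under 0.05. Their summed level overlapped, from 8104 to 12199 CPM in MCT2 CO and from 8894 to 16769 CPM in MCT2 KO, as did those of 7 endothelial markers, from 95.5 to 101 CPM and from 83.6 to 140 CPM, and of 12 neutrophil markers, from 85.8 to 104 CPM and from 69.1 to 189 CPM. Most of the neutrophil sum was *Csf3r*, at 70.9 to 94.3 CPM in MCT2 CO and 41.1 to 120 CPM in MCT2 KO. The overlap of that sum thus says little about the other genes of the list. In the neutrophil list, of which 8 genes passed the filter on low counts, 5 were higher in every MCT2 KO library, while *Ly6g* was at or near 0 throughout (at most 0.12 CPM). Of 8 B cell markers that passed it, 4 were lower in every MCT2 KO library, although their summed level overlapped. The same held for 3 of 7 NK cell markers, whose summed level also overlapped. The other 4 NK cell markers had a fitted fold change above 0, although 0 were higher in every MCT2 KO library. By edgeR, 1 NK cell marker was higher and 1 was lower at an unadjusted p under 0.05, so that list had no common direction. By DESeq2 without the filter, 4 neutrophil, 3 B cell, 3 fibroblast and 1 NK cell markers were called, beside 0.448% of all genes. It called 0 macrophage and 0 endothelial markers. The part of these cell types in the levels of the hypoxia genes was not tested.

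The other genes of the HIF pathway were read from lists of its remaining regulators, its glycolytic and lactate targets, and further targets. None of them passed the thresholds in edgeR's quasi-likelihood test. Their counts are to be read beside 3.77% higher and 5.6% lower of all genes tested at an unadjusted p under 0.05, and 7.07% higher in every MCT2 KO library. Of 16 regulators that passed the filter on low counts, 2 were higher at an unadjusted p under 0.05 and 0 lower. These were *Pkm*, the pyruvate kinase whose M2 form can act as a HIF coactivator (log2 fold change 0.35, SE 0.12), and *Rack1*, which promotes oxygen-independent loss of HIF (log2 fold change 0.24, SE 0.10).

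The glycolytic and lactate targets held the largest share of such genes among the 3 pathway lists. Of 23, 14 were higher and 1 was lower at an unadjusted p under 0.05, 13 were higher in every MCT2 KO library, and the median log2 fold change was 0.45. Those with the smallest p were *Pgm1*, phosphoglucomutase (log2 fold change 0.73, SE 0.17), *Gapdh* (log2 fold change 0.49, SE 0.11) and *Gpi1*, glucose-6-phosphate isomerase (log2 fold change 0.54, SE 0.14). By DESeq2 without the filter, 2 of these 23 were called, beside 0.448% of all genes. In macrophages by snRNA-seq, the paper reports the other direction, with several glycolytic genes lower in MCT2 KO. That comparison used single nuclei rather than CD11b+ cells in bulk, and the reason for the difference was not tested.

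Further HIF targets were mixed. Of 36 that passed the filter, 6 were higher and 4 lower at an unadjusted p under 0.05, and the median log2 fold change was 0.10. *Nos2*, the inducible nitric oxide synthase, had 1.27, 2.42 and 0.978 CPM in MCT2 CO and 3.86, 6.66 and 17.8 CPM in MCT2 KO, all higher but spread widely among the MCT2 KO libraries (log2 fold change 2.60, SE 0.59, adjusted p = 0.370 from edgeR). *Selenbp1* (log2 fold change 0.58, SE 0.18) and *Angptl4*, a secreted lipase inhibitor (log2 fold change 0.64, SE 0.23), were the next by p. *Angptl4* had 53.9, 52.6 and 50.5 CPM in MCT2 CO and 51.7, 110 and 83.2 CPM in MCT2 KO, so that its groups overlapped through MCT2 KO replicate 1, and its highest library was MCT2 KO replicate 2, as for *Hilpda*. Without MCT2 KO replicate 2 the log2 fold change of *Angptl4* was 0.37. In the other direction, *Jmjd1c* (log2 fold change -0.31, SE 0.10), *Lox*, the secreted lysyl oxidase (log2 fold change -0.27, SE 0.09), and *Mafk* (log2 fold change -0.55, SE 0.19) had the smallest p, with every MCT2 KO value below every MCT2 CO value. That of *Mafk* was -0.29 without MCT2 CO replicate 3, its highest library.

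Divided by the exon length of each gene, the members' levels in MCT2 CO ran from 0.161 CPM per kb for *Car12* and 0.894 CPM per kb for *Stc2* to between 57.5 and 62.8 CPM per kb for *P4ha1*, *Vegfa*, *Bhlhe40*, *Plin2* and *Fam162a*. The order of these 5 was not resolved, since the replicate SDs of *P4ha1* and *Vegfa* were 48.6 and 51.5 CPM on means of 259 and 265 CPM. The gene lengths deposited with the counts are whole gene spans, so reads in introns may have been counted as well, and these levels per kilobase are approximate.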

How the data were processed

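CD11b+ cells of 3 MCT2 CO and 3 MCT2 KO mice were analysed, grouped by sample title. Per the submitters' notes, the authors checked reads with FastQC 0.12.0 and MultiQC 1.28, mapped them with STAR 2.7.11b (GRCm38) and counted them with featureCounts 2.1.1. They deposited these counts unnormalized, 1 column per mouse. The annotation and strand setting are not given in the sources used here. The sample records name lung, whereas the methods describe flank tumors.

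Genes passing filterByExpr (minimum count 10, minimum total count 15) were scaled by TMM and tested with edgeR 4.0.16 (quasi-likelihood, no covariate, Benjamini–Hochberg adjustment over 13485 genes). SEs were the fold change over the root of F. DESeq2 1.42.0, limma 3.58.1 (voom), other scalings and filters, a replicate block and each mouse left out were alternatives, run in R 4.3.3, with annotation in Python 3.11.15. The procedure was tested on simulated counts. At these depths counting error matters mainly near 1 CPM. The p values of the fits set the difference between the groups against the variation between single mice.

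The table's lengths are whole gene spans and 2.2% of its positions match GENCODE M21 on GRCm38, so positions and exon lengths were taken from M21 by identifier. Overlap with another span was counted on either strand. *Ero1a* is named Ero1l there. Promoters were those of RefSeq.

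The members and gene lists were chosen with earlier results of these data known. All 31 members and *Slc16a7* were named, and per pathway list at most 3 genes in each direction by unadjusted p. Single marker genes were named after their values were seen.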

Additional observations from a re-analysis of the deposited data

How the results depend on the processing

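The counts that depended on the test were the calls: DESeq2 called 79 genes with the filter and 83 without it, 2 of them members in both cases, and edgeR without a filter called 2 genes and 0 members, against 0 in the other edgeR fits on all 6 libraries and in limma-voom. Without both MCT2 CO replicate 3 and MCT2 KO replicate 2, an alternative added later, edgeR called 10 genes and 0 members. With single mice left out, calls ranged from 0 to 2 over all genes and were 0 among the members. Members at an unadjusted p under 0.05 ranged from 5 without MCT2 CO replicate 3 to 11 without MCT2 CO replicate 2 or MCT2 KO replicate 1, and members whose groups do not overlap from 8 to 17 (17 without MCT2 KO replicate 1 and 15 without MCT2 CO replicate 2), a count that grows when fewer samples must separate. Over all genes the number at an unadjusted p under 0.05 ranged from 787 without MCT2 CO replicate 3 to 1576 without MCT2 KO replicate 2, so the member counts are not on 1 background and the non-overlap count over all genes was not computed in these fits. The median log2 fold change of the members stayed between 0.13 and 0.25 there, the highest being without MCT2 CO replicate 2.

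The 7 members higher in every MCT2 KO library kept a positive fold change in every alternative run. They were picked for this separation in the same libraries, so leaving libraries out could hardly reverse it. Their persistence is thus no separate support. All 7 stayed apart from MCT2 CO except *Ndrg1* under scaling by library size alone, and *Ndrg1*, with *Plin2* in some fits, lost its unadjusted p under 0.05 without MCT2 CO replicate 1, MCT2 CO replicate 3 or MCT2 KO replicate 3.

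Members near 0 changed sign. *Epas1* was at 0.00037 and 0.0066 by DESeq2 with and without the filter, 0.076 with limma-voom, 0.0020 with DESeq2 size factors, 0.0035 without a filter and 0.048 with the replicate block. With single mice left out, *Epas1* ranged from -0.23 to 0.31, *Hif1a* from -0.071 to 0.0088, *Vhl* from -0.085 to 0.00023, *Vegfa* from -0.057 to 0.29, *Bhlhe40* from -0.14 to 0.089, *Rora* from -0.19 to 0.075 and *Ddit4* from -0.023 to 0.21. Without both libraries that stand apart, *Epas1* was at 0.20, *Egln2* at 0.016, *Hif1an* at -0.019, *Plod2* at -0.048, *Bhlhe40* at 0.16 and *Rora* at 0.12. The causes were not tested.

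The replicate numbers gave no pairing: the deviations of same-numbered libraries correlated at 0.22, -0.25 and -0.16, and not every library correlated best with its own number. With the replicate block, edgeR called 0 genes and 0 members, 9 members had an unadjusted p under 0.05, and the median was 0.17. Depth limits *Car12*.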
